A study of Mus musculus with 12 samples.

Results

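The 9 genes described here, Mbp, Mog, Mag, Mobp, Cnp, Cldn11, Olig2, Sox10 and Pdgfra, encode myelin proteins and regulators of the oligodendrocyte lineage. They were chosen by name for that role, with earlier results of these data known, out of 39756 genes in the count table. All 9 had enough reads to be tested. The libraries came from ischemic hemispheres of 12 C57BL/6J mice in 3 groups of 4. Sham mice were given saline and underwent surgery without occlusion of the artery. Vehicle mice were also given saline and were subjected to transient occlusion of the middle cerebral artery (tMCAO). The occlusion was made by a filament that was later taken out to let blood return. LJP mice underwent the same occlusion and received Laminaria japonica polysaccharide (LJP), a sulfated polysaccharide from brown seaweed. By the study's methods the mice were males aged 9 to 10 weeks, the occlusion lasted 45 min, and LJP or saline was given by the intragastric route for 14 days before surgery and continued afterwards. The study took its middle dose, LJP-M, into the experiments that followed its dose comparison. The labels give no dose for the sequenced mice, and the time at which they were sampled is not given in the sources used here. All samples carry the same batch label. Total counts per mouse ranged from 17960353 to 22216315, and the 9 genes together took between 0.364% and 0.622% of them. Each value is in CPM, the read count scaled to the normalized size of its library, unless stated otherwise, and each library holds all cells of the tissue, so that fewer cells of a type and less RNA per cell cannot be told apart.

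Oligodendrocytes wrap axons of the brain and spinal cord in myelin, a stack of compacted membrane that insulates the axon and speeds conduction. They arise from oligodendrocyte precursor cells, which carry the growth factor receptor Pdgfra, divide throughout life and differentiate under the control of Olig2 and Sox10. Myelin basic protein (Mbp) seals the inner faces of the membrane, Mobp lies beside it in compact myelin, and Cldn11 forms the tight junctions between the layers. Cnp keeps cytoplasmic channels open, Mag sits on the membrane that faces the axon, and Mog lies on the outer surface of the sheath. The mRNAs of Mbp and Mobp are carried out along the processes of the cell and translated near the sheath. White matter is damaged in ischemic stroke along with gray matter.

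The promoter windows of 3 genes are shown because these genes span the range of what was measured: Cldn11 differed most between Vehicle and Sham mice, Mobp also rose, and Mog differed by less than the spread between mice. Each of these windows holds the 250 bases before the start of the gene, from RefSeq on GRCm38.p6, read 5′ to 3′ on the strand of the gene. Capitals mark matches to ACAAAG on either strand (CTTTGT as printed), letters that proteins of the Sox family, to which Sox10 belongs, are known to bind.
Cldn11, plus strand, chr3:31149670-31149919: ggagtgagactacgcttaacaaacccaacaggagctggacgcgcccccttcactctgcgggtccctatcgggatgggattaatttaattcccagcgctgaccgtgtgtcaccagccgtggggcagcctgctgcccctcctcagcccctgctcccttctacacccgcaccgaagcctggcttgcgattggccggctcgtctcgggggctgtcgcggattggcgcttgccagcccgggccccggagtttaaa
Mobp, plus strand, chr9:120149492-120149741: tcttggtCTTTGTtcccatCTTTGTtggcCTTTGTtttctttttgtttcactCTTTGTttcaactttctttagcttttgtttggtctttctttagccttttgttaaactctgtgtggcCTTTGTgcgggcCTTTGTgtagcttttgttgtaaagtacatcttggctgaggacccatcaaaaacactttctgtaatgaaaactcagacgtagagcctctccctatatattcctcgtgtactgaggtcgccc
Mog, minus strand, chr17:37023399-37023648: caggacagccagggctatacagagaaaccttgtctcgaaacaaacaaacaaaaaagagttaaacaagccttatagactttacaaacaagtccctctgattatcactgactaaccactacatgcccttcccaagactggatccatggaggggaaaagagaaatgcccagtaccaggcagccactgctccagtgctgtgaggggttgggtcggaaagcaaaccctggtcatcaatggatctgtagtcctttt
The Mobp window held 6 matches, all on the opposite strand, while the Cldn11 and Mog windows held none. For 7 of the 9 genes, 9 windows before annotated transcript starts were read, some of which lie inside the gene, and ACAAAG occurred in 4 of the 9 windows (of Cnp, Mag and Mobp), against 16.5% of all 32851 windows of this length. Of these 4, 2 are overlapping windows of Mag that hold the same match. ACAATG, a related form, occurred in 1 window (Olig2), against 10.7% of all windows. The E-box CAGCTG, of the kind that Olig2 is known to bind, occurred in 0 of the 9 windows, against 13.0% of all windows, and the E-box CATATG in 0, against 3.46%. TATAAA occurred in 1 (Olig2), against 12.4%. These letters describe the windows and are not measured binding sites.

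Before the groups are compared, the levels in Sham mice show how the 9 genes are ordered. Levels were divided by the gene length deposited with the counts, a single value per gene, and the order depends on that length. Per kilobase of it, the mean level was highest for Mbp, at 381 ± 40.9 CPM per kilobase (SD, n = 4). Mbp was followed by Cnp at 124 ± 11.9 and Mobp at 119 ± 10.6, whose mice overlapped. Cldn11 at 86.6 ± 7.55 and Mag at 77.8 ± 5.87 came next and also overlapped. Sox10 at 23.4 ± 2.07, Mog at 20.7 ± 1.44 and Olig2 at 17.4 ± 1.17 followed, each overlapping its neighbor. Pdgfra was lowest at 5.74 ± 0.28. Mbp and Pdgfra kept the first and the last place in the Vehicle and LJP groups. In the Vehicle group the means of Mobp, 166.3 CPM per kilobase, and Cldn11, 166.1, both stood above that of Cnp, 117. The mice of Mobp and Cnp overlapped, with the lowest Mobp at 135.3 and the highest Cnp at 135.9.

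The comparison of Vehicle with Sham mice addressed what occlusion and reperfusion do to these transcripts. Of the 9 genes, 3 rose in Vehicle mice at an adjusted p below 0.05 (Cldn11, Mobp and Pdgfra) and none fell. Over all 17558 genes tested, 39.9% were called in this comparison (22.7% higher and 17.3% lower), so 3 calls in 9 genes is near the share of genes at large. The median log2 fold change of the 9 genes was 0.28 and that of all genes 0.00. In 4 genes (Cldn11, Mobp, Pdgfra and Mbp) every Vehicle mouse stood above every Sham mouse, against 20.7% of all genes tested. Leaving out single mice gave between 1 and 4 calls, and only Cldn11 was called without Sham 1, while the share of all genes called lay between 29.5% (without Sham 1) and 45.9% (without Vehicle 3). At the thresholds of the study's methods (an absolute log2 difference over 0.58 with an unadjusted p below 0.01), edgeR called 2 of the 9 genes in Vehicle against Sham, 0 in LJP against Vehicle and 1 in LJP against Sham, where 21.7%, 6.97% and 5.90% of all genes were called.

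**Figure D1:**
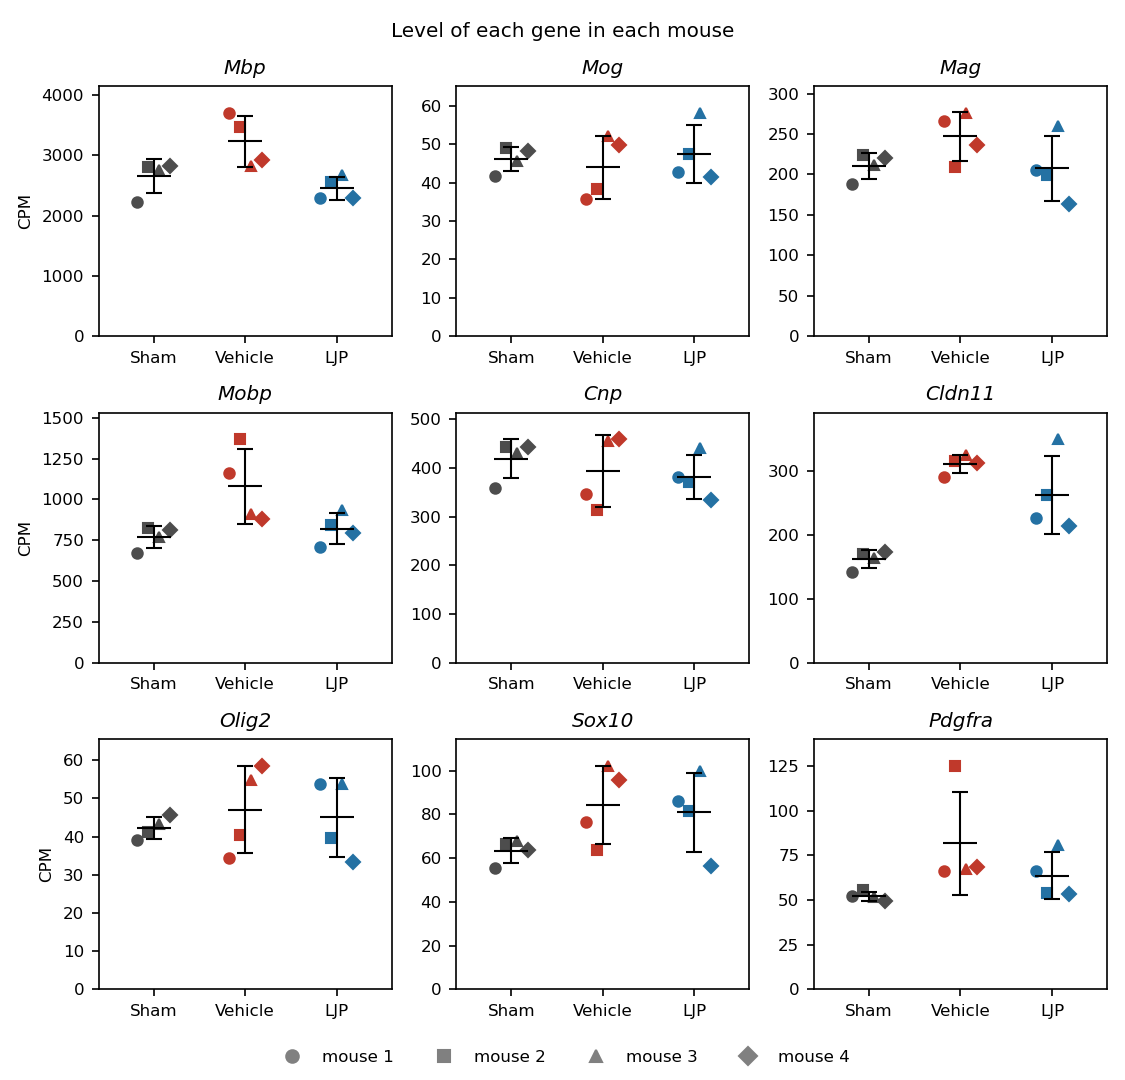
Level of each of the 9 genes in CPM on the vertical axis, for the 4 mice of the Sham, Vehicle and LJP groups; each marker is a mouse, the long bar is the mean and the whiskers are 1 SD. All Vehicle and LJP mice lie above all Sham mice for Cldn11, Vehicle 2 stands apart for Pdgfra, and Vehicle 1 and 2 lie below Vehicle 3 and 4 for Mog, Cnp and Olig2 but above them for Mbp and Mobp.

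Cldn11 (chr3:31149920-31164326, plus strand, GRCm38), the tight junction protein of myelin, showed the largest difference of the 9 genes. Its level was 142, 169, 163 and 174 CPM in Sham mice 1 to 4, 291, 316, 324 and 313 CPM in Vehicle mice, and 226, 262, 350 and 214 CPM in LJP mice. The Vehicle mice lay close together and all above the Sham mice, and the LJP mice spread from below to above the Vehicle mice. The Vehicle mean of 311 ± 14.4 CPM (SD, n = 4) was 1.92-fold that of the Sham mean of 162 ± 14.1 in the fitted model (log2 fold change 0.94 with a standard error of 0.13, edgeR adjusted p = 0.000442). Without single mice the log2 fold change lay between 0.88 and 0.97 and the call held each time. Cldn11 is also made by cells of the arachnoid covering of the brain. The summed level of 10 fibroblast markers, collagens among them, was 625, 2504, 369 and 509 CPM in Vehicle mice 1 to 4, and its part in the Cldn11 difference was not tested.

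Mobp (chr9:120149742-120181488, plus strand) was measured at 672, 824, 771 and 811 CPM in Sham mice, at 1161, 1367, 910 and 878 CPM in Vehicle mice, and at 705, 844, 937 and 796 CPM in LJP mice. Vehicle 1 and 2 were the highest of all 12 mice, and Vehicle 3 and 4 lay just above the highest Sham mouse. Vehicle exceeded Sham by 0.49 on the log2 scale (standard error 0.14, edgeR adjusted p = 0.0170), a fold of 1.40. It was 0.35 without Vehicle 2 and missed the threshold without Sham 1 (0.43, edgeR adjusted p = 0.0558).

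Mbp was read at 2230, 2813, 2761 and 2819 CPM in Sham mice, at 3709, 3469, 2829 and 2924 CPM in Vehicle mice, and at 2286, 2559, 2673 and 2290 CPM in LJP mice. All Vehicle mice were above all mice of the other groups, but Vehicle 3 and 4 exceeded the highest Sham mouse by little. The difference of 0.28 on the log2 scale (standard error 0.12) did not pass the test (edgeR adjusted p = 0.0700). It passed without Vehicle 3 (0.34, edgeR adjusted p = 0.0356). A lncRNA, Gm52337, overlaps Mbp on the opposite strand with 685 to 1023 counts per mouse, against a median of 51010 for Mbp, and the strand setting of the counting is not given in the sources used here.

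Mag (chr7:30899175-30914922, minus strand), a lectin that binds the axon, was between 188 and 224 CPM in Sham mice, between 210 and 276 CPM in Vehicle mice and between 164 and 260 CPM in LJP mice, so that all 3 groups overlapped. Vehicle over Sham was 0.23 on the log2 scale (standard error 0.13, edgeR adjusted p = 0.178). Mog (chr17:37010740-37023398, minus strand), the outermost of these proteins and a late marker of the mature cell, was at 41.8, 48.9, 45.6 and 48.1 CPM in Sham mice, at 35.6, 38.2, 52.2 and 49.7 CPM in Vehicle mice, and at 42.9, 47.4, 58.2 and 41.5 CPM in LJP mice. Vehicle 1 and 2 were below every Sham mouse and Vehicle 3 and 4 above every Sham mouse. The mean therefore differed little (log2 fold change -0.07, 95% confidence interval -0.37 to 0.23, edgeR adjusted p = 0.705).

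Cnp (chr11:100574909-100591875, plus strand), the enzyme used to mark cells committed to myelination, was at 359, 443, 431 and 442 CPM in Sham mice, at 346, 313, 456 and 459 CPM in Vehicle mice, and at 382, 370, 440 and 333 CPM in LJP mice. As for Mog, Vehicle 1 and 2 were below every Sham mouse and Vehicle 3 and 4 were above every Sham mouse. The log2 fold change was -0.09 (95% confidence interval -0.38 to 0.20, edgeR adjusted p = 0.619). Part of Cnp overlaps Dnajc7, a gene on the opposite strand with 1951 to 2699 counts per mouse.

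Among the regulators, Olig2 (chr16:91225550-91228677, plus strand), the factor that specifies the lineage, was at 39.0, 41.2, 43.4 and 45.7 CPM in Sham mice, at 34.5, 40.5, 54.8 and 58.5 CPM in Vehicle mice, and at 53.9, 39.6, 53.7 and 33.3 CPM in LJP mice. The injured groups spread widely around the narrow range of the Sham mice (SD 11.5 and 10.4 against 2.86 CPM), and the mean difference of Vehicle from Sham was 0.15 on the log2 scale (edgeR adjusted p = 0.528). Sox10 (chr15:79154913-79164490, minus strand), which switches on myelin genes in the differentiating cell, was at 55.4, 66.6, 67.9 and 63.6 CPM in Sham mice, at 76.3, 63.5, 102 and 95.6 CPM in Vehicle mice, and at 86.2, 81.5, 99.9 and 56.5 CPM in LJP mice. All Vehicle mice except Vehicle 2 were above the Sham range. Its log2 fold change of 0.41 (standard error 0.17) did not pass the test (edgeR adjusted p = 0.0737), and it passed without Vehicle 2 (0.52, edgeR adjusted p = 0.0229) or LJP 4 (0.41, edgeR adjusted p = 0.0393).

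Pdgfra (chr5:75151322-75198206, plus strand), the receptor through which PDGF drives precursor cells to divide, was at 52.4, 55.5, 51.7 and 49.4 CPM in Sham mice, at 66.1, 125, 67.4 and 68.7 CPM in Vehicle mice, and at 66.2, 54.2, 81.1 and 53.1 CPM in LJP mice. All Vehicle mice were above all Sham mice, and Vehicle 2 stood far above the other 11 mice. The receptor rose by 0.65 on the log2 scale (standard error 0.20, edgeR adjusted p = 0.0215), a fold of 1.57. Without Vehicle 2 it was 0.36, still past the threshold (edgeR adjusted p = 0.0376), and it missed the threshold without Sham 1 or Sham 4 (edgeR adjusted p = 0.0502 and 0.0546). Pdgfra is also a marker of fibroblasts. The summed level of the 10 fibroblast markers was between 149 and 159 CPM in Sham mice and 625, 2504, 369 and 509 CPM in Vehicle mice 1 to 4, and 7 of the 9 markers tested rose with a median log2 fold change of 2.58. Vehicle 2, the mouse with the highest Pdgfra, also had the highest fibroblast sum, whose part in the Pdgfra difference was not tested beyond the value without that mouse.

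The Vehicle mice were split on these genes, in a way seen in the data and not given by the labels. The count of Mbp was 104 and 90.8 times that of Mog in Vehicle 1 and 2, and 54.2 and 58.8 times in Vehicle 3 and 4. In Sham mice the same ratio lay between 53.3 and 60.6, and in LJP mice between 45.9 and 55.2. Vehicle 1 and 2 were lower than Vehicle 3 and 4 in Mog, Cnp and Olig2 and higher than them in Mbp and Mobp. Olig2 in Vehicle 2, at 40.5 CPM, lay within the Sham range of 39.0 to 45.7 CPM. Summed neuron markers were lowest in the same mice, at 5677 and 4256 CPM against 6591 and 6335 CPM in Vehicle 3 and 4, and summed endothelial markers were highest there, at 657 and 1390 CPM against 295 and 353 CPM.

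**Figure D2:**
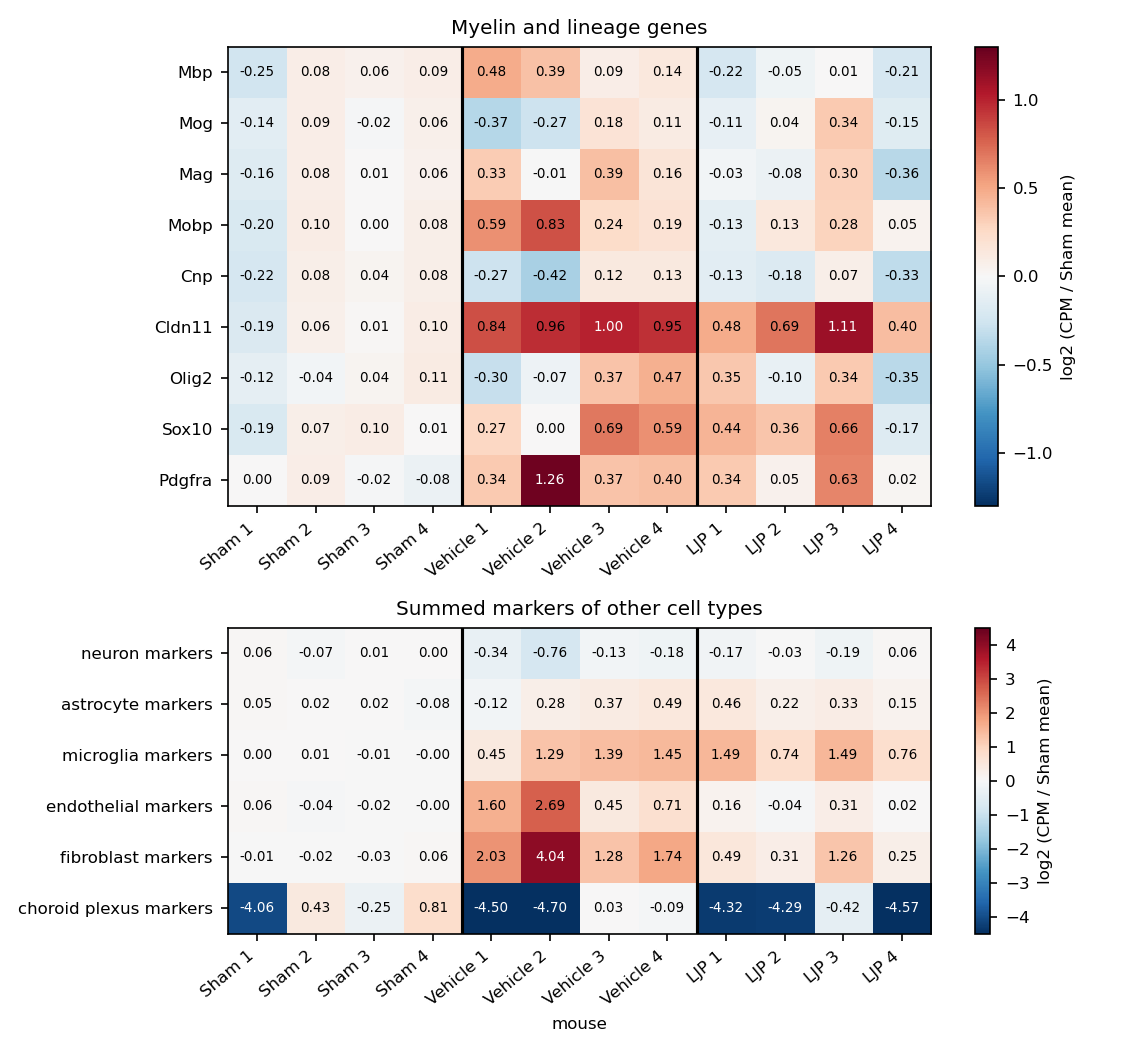
Log2 ratio of each level to the Sham mean, with a column per mouse, for the 9 genes (upper panel) and for the summed markers of 6 other cell types (lower panel, with a wider color scale); numbers in the cells are the plotted values. Vehicle 1 and 2 are positive for Mbp and Mobp and negative for Mog, Cnp and Olig2, and the choroid plexus row is far below 0 in 6 of the 12 mice.

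Markers of the choroid plexus, the tissue of the ventricles that makes cerebrospinal fluid, differed between mice of the same group. Their sum was 31.0, 697, 436 and 906 CPM in Sham mice, 22.9, 19.9, 530 and 485 CPM in Vehicle mice, and 26.0, 26.5, 387 and 21.8 CPM in LJP mice. The mice with high sums were those with high Mog and Cnp in the Vehicle and LJP groups, and Sham 1, with the low sum, was lowest of its group in 8 of the 9 genes, all but Pdgfra. When the log2 sum was added to the model as a covariate, an alternative chosen after seeing the data, 5 of the 9 genes rose in Vehicle mice, and 32.8% of all genes were called in either direction in that fit. Cldn11, Mobp and Pdgfra remained among them, and Sox10 (0.54, edgeR adjusted p = 0.00846) and Mag (0.32, edgeR adjusted p = 0.0475) were added. The log2 fold changes of Mog and Cnp turned from negative to 0.04 and 0.03. None of the 6 choroid plexus markers was itself called in Vehicle against Sham mice (median -0.89). Of 8 microglia markers 6 rose in Vehicle mice (median 1.00), and of 8 astrocyte markers 3 rose and 1 fell (median 0.22).

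Schwann cells, the myelin-forming cells of peripheral nerves, also express Mbp, Mag and Sox10. Levels within a list of their markers were uneven. Pmp2 and Foxd3 had 0 to 1 counts per mouse each, too low to be tested, while Drp2 had means of 79.0, 52.2 and 73.7 CPM in Sham, Vehicle and LJP mice, Cdh19 of 7.35, 9.41 and 10.4 CPM and Prx of 2.61, 4.49 and 1.98 CPM. Of the 8 Schwann markers 5 were tested, and between Vehicle and Sham mice 1 rose (Dhh, 3.52) and 1 fell (Drp2, -0.60).

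The comparison of LJP with Vehicle mice asked whether the polysaccharide altered these transcripts after occlusion. None of the 9 genes passed the edgeR test at an adjusted p below 0.05, against 0.0228% of all genes tested, which is 4 genes. Both counts depended on single Vehicle mice: without Vehicle 3, edgeR called 2 of the 9 and 21.6% of all genes, and without Vehicle 4 it called 2 of the 9 and 11.7%. At an unadjusted p below 0.05, 2 of the 9 were called (Mbp and Mobp, both lower in LJP mice), against 29.7% of all genes. DESeq2 called 1 of the 9, Mbp, against 13.2% of all genes by that tool. The log2 fold change of LJP over Vehicle was negative for 8 of the 9 genes and positive for Mog, with a median of -0.24 against 0.00 for all genes. Since this comparison and that of Vehicle with Sham share the Vehicle mice, a difference of opposite sign in the 2 is not independent evidence.

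The clearest case was Mbp. All LJP mice lay below all Vehicle mice, with 2452 ± 195 CPM (SD, n = 4) against 3233 ± 425 CPM, and such a separation downward was found in 5.91% of all genes tested. The difference was -0.40 on the log2 scale (standard error 0.12, 95% confidence interval -0.65 to -0.15, edgeR adjusted p = 0.0720). Without Vehicle 3 or Vehicle 4 it passed the threshold (-0.45 and -0.44, edgeR adjusted p = 0.0258 and 0.0451), and without Vehicle 1 it was -0.33 (edgeR adjusted p = 0.146). Mobp showed a like value of -0.40 (edgeR adjusted p = 0.103), with LJP 3 above Vehicle 3 and 4 and the other LJP mice below every Vehicle mouse. It passed without Vehicle 3 or Vehicle 4 (-0.46 and -0.48, edgeR adjusted p = 0.0421 and 0.0482), and it was -0.26 without Vehicle 2 (edgeR adjusted p = 0.220).

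For the remaining genes the LJP and Vehicle mice overlapped. Pdgfra differed by -0.36 (edgeR adjusted p = 0.231) and by -0.08 without Vehicle 2. Mag differed by -0.25 (edgeR adjusted p = 0.209) and Cldn11 by -0.24 (95% confidence interval -0.53 to 0.05, edgeR adjusted p = 0.234). Mog (0.11), Cnp (-0.05), Olig2 (-0.06) and Sox10 (-0.06) differed least, with edgeR adjusted p-values from 0.596 to 0.840. LJP 3 was the highest LJP mouse for Cldn11, Mobp, Mbp, Mog, Mag, Cnp, Sox10 and Pdgfra, and it also had the highest choroid plexus sum (387 CPM) and fibroblast sum (366 CPM) of its group. LJP 4 was the lowest for Cldn11, Mog, Mag, Cnp, Olig2, Sox10 and Pdgfra.

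**Figure D3:**
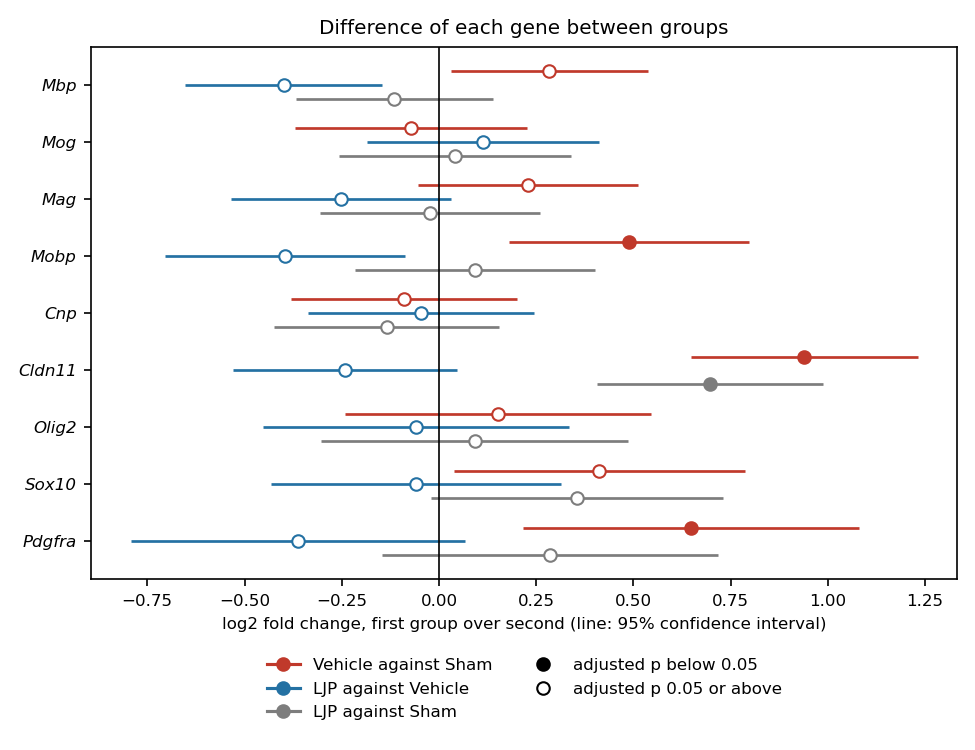
Log2 fold change on the horizontal axis for each of the 9 genes in the 3 comparisons, with lines for the 95% confidence interval and filled points for an adjusted p below 0.05 by edgeR. Filled points appear for Cldn11, Mobp and Pdgfra in Vehicle against Sham and for Cldn11 in LJP against Sham, and none in LJP against Vehicle.

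The comparison of LJP with Sham mice asked what differed from uninjured tissue in treated mice. Cldn11 was the gene called, higher in LJP mice by 0.70 on the log2 scale (standard error 0.13, edgeR adjusted p = 0.0101), a fold of 1.62. Of all genes tested, 4.75% were called in this comparison and 3.85% were called higher. The share of all genes called was 2.20% without LJP 3, 13.3% without Vehicle 2 and 23.8% with only these 2 groups fitted. All 4 LJP mice were above all Sham mice for Cldn11, against 12.9% of all genes, and the call held without each single mouse, with values from 0.53 to 0.78. The other 8 genes had log2 fold changes between -0.13 (Cnp) and 0.35 (Sox10), and the median of the 9 was 0.09. Among the alternatives run, Sox10 passed only with the choroid plexus covariate (0.59, edgeR adjusted p = 0.0370).

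Ratios within a library do not depend on how libraries are scaled. Mog was set against Olig2, since mature cells carry Mog and the whole lineage carries Olig2, and Pdgfra was set against Olig2 for the precursor side, which made 6 exact permutation tests, all two-sided. The log2 ratio of Mog to Olig2 was 0.12 ± 0.08 (SD, n = 4) in Sham mice, -0.09 ± 0.12 in Vehicle mice and 0.09 ± 0.29 in LJP mice. Every Vehicle mouse lay below every Sham mouse, a difference of -0.21 with an exact permutation p of 0.0286, the smallest that 4 against 4 mice allow, and of 0.171 after adjustment over the 6 tests. The LJP mice ranged from -0.33 in LJP 1 to 0.32 in LJP 4, a wider range than that of the Sham and Vehicle mice together, and their difference from Vehicle mice did not pass the test (0.18, exact permutation p = 0.314, adjusted 0.471). The log2 ratio of Pdgfra to Olig2 was 0.94 and 1.63 in Vehicle 1 and 2, and 0.30 and 0.23 in Vehicle 3 and 4. The group difference from Sham, 0.47, had an exact permutation p of 0.314 (adjusted 0.471), and it lay between 0.19 (without Vehicle 2) and 0.65 when single mice were left out.

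Lists of other genes of the lineage place the 9 genes in context. Of 21 further genes of the mature cell and the sheath, 4 rose and 3 fell in Vehicle mice, with a median log2 fold change of -0.06. The counts of this and the following lists are to be read against the 22.7% of all genes called higher and the 17.3% called lower. Cd9, a tetraspanin of many cell types including oligodendrocytes and activated glia, rose by 1.87 (edgeR adjusted p = 8.96e-05). Hapln2, a link protein at the node of Ranvier, rose by 0.92. It was at 71.6 and 104 CPM in Vehicle 1 and 2 and at 44.1 and 45.6 CPM in Vehicle 3 and 4. Its highest Sham mouse was at 41.8 CPM. Sirt2 and Tmem125 rose by 0.25 and 0.43. Omg, a glycoprotein of oligodendrocytes and neurons, fell by 0.53 (edgeR adjusted p = 0.00609). Gjc3, a connexin of oligodendrocytes, fell by 0.76 (edgeR adjusted p = 0.00971), and Tppp, a tubulin-binding protein, fell by 0.67. Tppp was at 238, 197, 383 and 402 CPM in Vehicle mice 1 to 4, against a Sham minimum of 471 CPM.

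Of 13 genes for myelin lipids and metabolism, 5 rose and 1 fell, with a median of -0.07. Apod, a lipid-binding lipoprotein, rose by 3.11 on the log2 scale (edgeR adjusted p = 8.96e-05), from 88.1 ± 4.79 CPM (SD, n = 4) to 759 ± 335 CPM. Apod was 978 and 1107 CPM in Vehicle 1 and 2 and 537 and 415 CPM in Vehicle 3 and 4. Trf, the iron carrier transferrin, which in the brain is made by oligodendrocytes and by choroid plexus, rose by 1.68 (edgeR adjusted p = 0.000257), from 303 ± 32.5 to 969 ± 77.8 CPM. Elovl1, an elongase of long fatty acids, rose by 0.98 (edgeR adjusted p = 0.00189). Cers2 rose by 0.85 and Adamts4 by 0.70, and Aspa, which frees acetate for lipid synthesis, fell by 0.74. In Vehicle mice 1 to 4, Adamts4 was at 109, 124, 61.0 and 62.7 CPM, against a Sham maximum of 59.8 CPM. Aspa was at 2.63, 3.27, 7.37 and 6.95 CPM in the same mice, against a Sham minimum of 7.67 CPM. Apod and fibroblast markers stood together at their highest in Vehicle 2, and fibroblasts also make Apod, a part that was not tested.

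Among 15 transcription factors, 3 rose and 1 fell, with a median of -0.16. Myrf, which keeps the myelin program active, rose by 0.66 (edgeR adjusted p = 0.00581), Nkx6-2 rose by 0.65 (edgeR adjusted p = 0.00307) and Id2 rose by 0.37. Id4, an inhibitor of helix-loop-helix factors such as Olig2, fell by 0.93 (edgeR adjusted p = 0.000634), from 137 to 71.6 CPM. Myrf was highest in Vehicle 1, at 168 CPM, where Olig2 was lowest of its group.

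Of 18 genes of precursor cells, 3 rose and 2 fell, with a median of -0.03. Sulf2, a sulfatase of heparan sulfate, rose by 0.57 (edgeR adjusted p = 0.000249), Vcan, a matrix proteoglycan, by 1.01 (edgeR adjusted p = 0.00161) and Traf4 by 0.52. Cacng4, an auxiliary subunit of AMPA receptors, fell by 1.20 (edgeR adjusted p = 0.00172), and Tnr, a matrix protein, fell by 0.49. Of 5 further genes of the PDGF system, 2 rose. Pdgfb rose by 0.61 (edgeR adjusted p = 0.000442), and Pdgfrb, a receptor of pericytes and fibroblasts, by 1.53 (edgeR adjusted p = 0.00651). Pdgfrb was at 67.8, 179, 42.8 and 52.9 CPM in Vehicle mice 1 to 4, against a Sham maximum of 31.1 CPM. Pdgfd differed by 0.56 (edgeR adjusted p = 0.159), and Pdgfa, the ligand best known for driving precursor cells, had means of 70.5, 70.1 and 67.9 CPM in Sham, Vehicle and LJP mice. Of 13 signals and receptors that act on the lineage, 2 rose and 3 fell, with a median of -0.29. Notch1, a receptor that holds precursors undifferentiated, rose by 1.38 (edgeR adjusted p = 0.00136) and its ligand Jag1 by 0.97, both being genes of vessels as well. Jag1 was at 20.5 and 41.5 CPM in Vehicle 1 and 2, and at 9.80 and 12.3 CPM in Vehicle 3 and 4, within the Sham range of 8.93 to 12.6 CPM. Nrg1, an axonal growth factor, fell by 0.56 (edgeR adjusted p = 0.00716), Chrm1, a muscarinic receptor abundant in neurons, fell by 0.68 (edgeR adjusted p = 0.0159), and Rtn4r fell by 0.51. Of 10 neuron markers, 4 fell in Vehicle mice (median -0.45), and of 6 endothelial markers, 4 rose (median 1.72). The part of either in these lists was not tested.

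**Figure D4:**
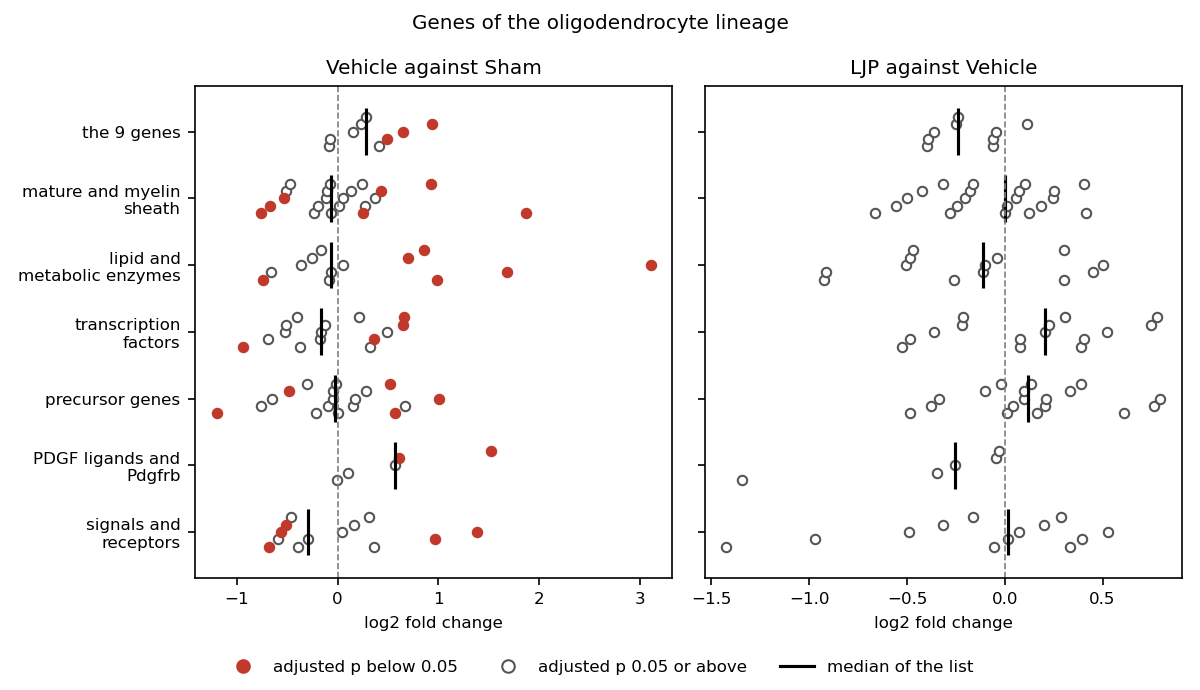
Log2 fold change of each gene, a point each, in the 9 genes and 6 further lists of the lineage, for Vehicle against Sham (left) and LJP against Vehicle (right); filled points have an adjusted p below 0.05 by edgeR and bars mark the median of each list. Genes of each of the 6 lists lie on both sides of 0 in the left panel, and no point is filled in the right panel.

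Between LJP and Vehicle mice no gene of these lists passed the edgeR test. Those with the smallest p-values were Notch1 (-0.97), Jag1 (-1.42) and Adamts4 (-0.92), each with an edgeR adjusted p of 0.0678, and Pdgfrb (-1.34) and Id4 (0.52), each with 0.0680. In the sheath list they were Bcas1 (-0.56), Omg (0.42) and Tmem125 (-0.50). Bcas1, which marks cells that are starting to myelinate, was between 224.7 and 280 CPM in Vehicle mice and between 125 and 223.5 CPM in LJP mice. The groups thus separated narrowly, and such a separation downward was found in 5.91% of all genes tested. Notch1, Jag1 and Pdgfrb were also lower without overlap, and Id4 and Omg were higher without overlap. Apod (-0.92), Elovl1 (-0.50), Myrf (-0.49), Tcf7l2 (-0.52) and Vcan (-0.48) were lower in LJP mice in level, and Cacng4 (0.61), Tnr (0.39) and Chrm1 (0.53) were higher, none of them past the test. Pdgfb differed by -0.25 and Pdgfd by -0.35. Markers of other cell types also differed in level between LJP and Vehicle mice, none of them called. Lower in LJP mice were all 9 fibroblast markers tested (median -2.13), 5 of 6 endothelial markers (median -1.43) and all 6 choroid plexus markers (median -0.97), and higher were 9 of 10 neuron markers (median 0.26), 6 of 8 microglia markers (median 0.03) and 5 of 8 astrocyte markers (median 0.06). The summed fibroblast markers were between 181 and 366 CPM in LJP mice and between 369 and 2504 CPM in Vehicle mice, and the part of these cell types in the differences above, and in that of Pdgfra, was not tested. The medians of the 6 lists lay between -0.25 (PDGF system) and 0.21 (transcription factors).

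Between LJP and Sham mice, 5 of the 85 genes of these 6 lists rose, where 3.85% of all genes were called higher: Apod (2.19), Cd9 (1.45), Trf (1.19), Sulf2 (0.47) and Pdgfb (0.36). Of the 85, 1 fell, Prr18 of the sheath list, by 0.44 (edgeR adjusted p = 0.0488), where 0.900% of all genes were called lower. The means of Apod were 88.1, 759 and 403 CPM in Sham, Vehicle and LJP mice. Trf in LJP mice was 737, 551, 1049 and 429 CPM, spread like Cldn11 with LJP 3 at the top and LJP 4 at the bottom.

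The genes whose levels followed 4 of the members most closely were looked up among all 17558 genes over the 12 mice, by Pearson's r of log2 CPM, as a description that takes the highest of many values and has no test. For Mog they were Aph1c (0.90), Ermn (0.89) and Gm46265 (0.88). Ermn encodes a cytoskeletal protein of mature oligodendrocytes. For Olig2 they were Pllp (0.93), a myelin proteolipid, Acss1 (0.91) and Mmp15 (0.91), and for Sox10 they were Sox3 (0.92), Oma1 and Tmem106c (0.89). For Pdgfra they included Septin2 and Manba, each at 0.98. With the group means removed, Mog was followed by Phldb1 (0.97), Ttr (0.95) and A930017K11Rik (0.94), of which Ttr is a choroid plexus marker. On that measure Olig2 was followed by Ikzf2 (0.96), Pllp (0.96) and Sall1 (0.95), of which Sall1 is among the microglia markers used here. Sox10 was followed by Sox3 (0.96), Gjb1 (0.95) and Ccdc51 (0.95), and Pdgfra by genes that included Ankrd44 and Cav1 (0.98 each). The genes of a library share its sequencing depth and its tissue composition, which differed between mice.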

How the data were processed

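Poly(A) RNA of ischemic hemispheres from 12 mice (4 per group, by the labels) was prepared with the NEBNext Ultra kit and sequenced as paired-end reads. The authors deposited raw read counts per gene, made with featureCounts by the submitters' processing notes, which also name DESeq2 and both mm10 and GRCm39. The aligner and the strand setting are not given in the sources used here. The deposited gene length of each gene was used for levels per kilobase, and gene positions matched GRCm38 for 39726 of 39754 IDs found in RefSeq and for all 9 genes.

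Counts were analyzed in R 4.3.3 with edgeR 4.0.16 (filterByExpr, TMM, quasi-likelihood test, all 12 mice in 1 model), with Benjamini-Hochberg adjustment over 17558 genes and a threshold of 0.05. Log2 CPM used a prior count of 2. Ratios were tested by exact permutation over mice. P-values measure the spread between samples that the labels list as separate replicates. Total counts of 17960353 to 22216315 put the limit of a count of 0 (3 counts) well below every one of the 9 genes. Mice of a group were checked for duplicates: the chi-square per degree of freedom was at least 2.56 over 18 pairs.

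The 9 genes and all lists (lineage lists and markers of neurons, astrocytes, microglia, endothelium, fibroblasts, choroid plexus and Schwann cells) were chosen with earlier results of these data known. Named genes are the 9, the top 3 by p-value of each lineage list for Vehicle against Sham and for LJP against Vehicle, and the 3 most alike to Mog, Olig2, Sox10 and Pdgfra. Other list genes named were called or chosen after their values were seen. Alternatives were DESeq2 1.42.0, RLE or library-size scaling, no filter, 2-group fits, a replicate block, the thresholds of the study's methods, leaving out each mouse, and, added after seeing the data, choroid plexus markers as a covariate. Some genes, sequences and positions that these rules name are not reported here.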

Additional observations from a re-analysis of the deposited data

Results flagged for a closer look

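In 4 of 33 sets of 4 mice, the highest or lowest mouse lay further from the others than Dixon's 95% critical value for the gap as a share of the range, and chance flags about 1 set in 20, or 1.65 of 33. Pdgfra in Vehicle 2 was the most extreme, with a gap of 0.955 of the range: 125 CPM against 66.1 to 68.7 CPM in the other Vehicle mice. Mbp in Sham 1, at 2230 CPM against 2761 to 2819 CPM, had a gap of 0.902. Cnp in Sham 1, at 359 CPM against 431 to 443 CPM, had a gap of 0.854. The log2 ratio of Mog to Olig2 in Sham 2, 0.25 against 0.07 to 0.10, had a gap of 0.842.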

How the results depend on the processing

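Counts of the 9 genes called were 3 for Vehicle against Sham, 0 for LJP against Vehicle and 1 for LJP against Sham with RLE scaling, no filter on low counts and fits of only the 2 groups compared, where 40.1%, 21.2% and 30.7% of all genes were called in Vehicle against Sham. Samples with the same replicate number correlated between -0.32 and 0.11 over 12 pairs, with 1 pair over 0.1, so the numbers were not taken to pair the mice, and the replicate block gave 3, 0 and 1 calls (34.8% of all genes in Vehicle against Sham). Scaling by library size alone called 5 genes in Vehicle against Sham (40.1% of all genes), DESeq2 called 1 in LJP against Vehicle, and the choroid plexus covariate called 5 in Vehicle against Sham and 2 in LJP against Sham. Leaving out single mice gave 1 to 4, 0 to 2 and 1 calls, with 1 call without Sham 1 (29.5% of all genes) and 2 calls without Vehicle 3 or Vehicle 4. Over all genes, LJP against Vehicle gave 4 calls in the main analysis, 2307 by DESeq2, 593 without the filter, 2 with the block or with only the 2 groups fitted, 3857 without Vehicle 3 and 2095 without Vehicle 4. LJP against Sham gave 834, and 4043 with only the 2 groups fitted, 1454 by DESeq2, 464 with the block, 516 with the covariate, 2357 without Vehicle 2 and 393 without LJP 3, the last 2 being the extremes over single mice left out. The cause was not tested.

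Signs changed only in values that were not called. Library-size scaling turned Mag in LJP against Sham to 0.0317 and Mog in Vehicle against Sham to 0.0034. With the covariate, Cnp became 0.0271, 0.0582 and 0.0852 (Vehicle against Sham, LJP against Vehicle, LJP against Sham), Mag 0.12 (LJP against Sham), Mog 0.0429 (Vehicle against Sham), and Olig2 and Sox10 0.0548 and 0.0509 (LJP against Vehicle). Without single mice, LJP against Vehicle ranged from -0.14 to 0.0381 for Cnp, from -0.18 to 0.0631 for Olig2, from -0.17 to 0.0818 for Sox10 and from -0.45 to 0.0158 for the ratio of Pdgfra to Olig2. LJP against Sham ranged from -0.15 to 0.0733 for Mag, from -0.0710 to 0.10 for Mog, from -0.0071 to 0.21 for Olig2 and from -0.11 to 0.11 for the ratio of Mog to Olig2. Vehicle against Sham ranged from -0.17 to 0.0174 for Mog. With 4 mice per group, differences within the intervals given in the report cannot be resolved.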

Other observations

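Gpr17, which marks precursor cells that have begun to differentiate, was chosen after its values were seen. It was at 50.7, 56.6, 55.2 and 52.8 CPM in Sham mice, at 3.72, 8.42, 57.6 and 58.4 CPM in Vehicle mice, and at 77.3, 46.6, 56.1 and 41.2 CPM in LJP mice. Vehicle 1 and 2 were far below the other 10 mice, which overlapped across groups, and the comparison of Vehicle with Sham did not pass (-0.76 on the log2 scale, standard error 0.62, edgeR adjusted p = 0.348). Cspg4, the NG2 proteoglycan of precursor cells, was between 26.8 and 32.0 CPM in Sham mice, at 19.5, 40.9, 41.4 and 39.8 CPM in Vehicle mice 1 to 4, and between 30.2 and 43.2 CPM in LJP mice, so that Vehicle 2 stood with Vehicle 3 and 4. The 18 precursor genes summed to 636 and 633 CPM in Vehicle 1 and 2 and to 903 and 890 CPM in Vehicle 3 and 4, against 802 to 856 CPM in Sham mice. Large parts of this sum were Tnr (127, 95.2, 189 and 180 CPM in Vehicle mice 1 to 4) and Ptprz1 (99.1, 109, 170 and 169 CPM). Sulf2, also a large part, lay between 183 and 194 CPM in these mice. Neuron markers were lowest in Vehicle 1 and 2 too, and the part of other cell types in the sum was not tested. Olig1, the partner of Olig2, was at 128, 169, 249 and 239 CPM in Vehicle mice 1 to 4, against 150 to 183 CPM in Sham mice.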
